A study of Mus musculus with 19 samples.

Results

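The machinery that carries a cell through G1 was followed in hematopoietic progenitors after induction of an shRNA against the long non-coding RNA *Spehd* or against *Renilla* luciferase. The 10 transcripts described here were chosen by name from the 54352 genes counted. They are the D-type cyclins *Ccnd1*, *Ccnd2* and *Ccnd3*, the E-type cyclin *Ccne1*, the cyclin-dependent kinases *Cdk2*, *Cdk4* and *Cdk6*, and the inhibitors *Cdkn1a* (p21), *Cdkn1b* (p27) and *Cdkn2c* (p18). All 10 passed the filter on low counts in every comparison. RNA came from 2 populations of donor-derived bone marrow cells, LSK cells (labelled KLS), which hold the stem cells and multipotent progenitors, and CMPs, the common myeloid progenitors. LSK cells gave 4 libraries with *Renilla* shRNA, 3 with sh10 and 3 with sh20, and CMPs gave 4, 3 and 2. All groups shared 1 treatment: C57BL6 HSCs carrying a doxycycline-inducible hairpin were transplanted into sublethally irradiated recipients (C57BL/6-CD45.1; cKit-w41), left for 10 weeks, and induced by 6 days of doxycycline. The *Renilla* groups therefore carried the same vector, with its zsGreen marker and rtTA, and received the same drug. The paper's account of the sort for RNA sequencing names no zsGreen gate. The libraries of a group differ by a letter, and nothing in the labels says that letters are separate animals, so p-values measure the spread between these samples, which may be technical. LSK cells and CMPs were both sorted from transplanted mice, so libraries of the 2 populations may share animals. Contrasts across cell types treated all libraries as independent. *Spehd* is not among the genes counted, so its knockdown was not measured here.

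In G1, mitogenic signals raise D-type cyclins, which bind CDK4 and CDK6 and begin the phosphorylation of RB proteins. E2F factors are then released and activate cyclin E, which with CDK2 completes RB phosphorylation and starts DNA replication. INK4 proteins such as p18 bind CDK4 and CDK6 directly, and p21 and p27 inhibit cyclin E-CDK2. In the bone marrow, stem cells are largely quiescent, progenitors divide often, and CDK6 and p18 are known regulators of how stem cells leave quiescence and self-renew.

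The sequence upstream of the 2 members on which the results turn, *Ccne1* and *Cdk6*, is shown as the DNA from which their transcription starts. Both are stretches of the 250 bases before a RefSeq start on GRCm38.p6, trimmed to leave out annotated exons and read 5′ to 3′ on the gene's strand. For *Ccne1* it is chr7:38107535-38107740 (minus strand), and for *Cdk6* it is chr5:3343789-3343892 (plus strand), which lies inside the annotated gene, between exons. The genes themselves are annotated by GENCODE vM21 (GRCm38) at chr7:38097984-38107534 for *Ccne1* (ENSMUSG00000002068.16) and chr5:3341485-3531008 for *Cdk6* (ENSMUSG00000040274.11). Capitals mark the GC box GGGCGG or its reverse complement CCGCCC.
*Ccne1*: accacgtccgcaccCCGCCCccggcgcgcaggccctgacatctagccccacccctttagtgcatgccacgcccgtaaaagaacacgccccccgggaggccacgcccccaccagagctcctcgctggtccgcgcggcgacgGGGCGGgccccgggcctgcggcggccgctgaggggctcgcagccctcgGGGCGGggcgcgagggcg
*Cdk6*: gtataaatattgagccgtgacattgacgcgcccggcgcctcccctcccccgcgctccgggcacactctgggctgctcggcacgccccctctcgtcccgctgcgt
The *Ccne1* stretch holds 3 GC boxes and the *Cdk6* stretch holds 0. RefSeq windows of 250 bases were matched for 8 of the 10 members (11 windows), and 8 of these windows held a GC box on either strand, against 32.7% of all 32851 windows. An E2F site, searched on both strands as TTTCCCGC, TTTCGCGC, TTTGCCGC or TTTGGCGC, was found in 1 member window, that of *Cdk2*, 140 bases before the start, and in 1.86% of all windows. A match is only a run of letters, and an absent match says nothing about binding.

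The libraries held from 3647318 to 5965155 counts on genes, and the 5 CMP libraries with *Spehd* shRNA (4918631 to 5965155) were all deeper than the 4 with *Renilla* shRNA (3857980 to 4314959). Defining markers separated the populations, though not every listed marker did. *Ly6a*, which encodes Sca-1 of the LSK gate, ran from 39.9 to 81.7 CPM (counts scaled to library size) in LSK cells and from 1.58 to 9.83 CPM in CMPs, and the erythroid factor *Gata1* ran from 58.9 to 124.7 CPM in LSK cells and from 252.8 to 312.0 CPM in CMPs. Of 12 listed markers of committed myeloid cells, the granulocytic genes *Mpo*, *Elane*, *Ctsg* and *Prtn3* and the receptor gene *Fcgr3* went the other way, with higher means in LSK cells (*Mpo* 488.4 ± 51.5 CPM, n = 10) than in CMPs (377.4 ± 74.9 CPM, n = 9), and of 12 stem cell and LSK markers *Mllt3* had the higher mean in CMPs. Replicate B of LSK sh10 stood apart from its group, the 2 CMP sh20 libraries stood apart from each other, and the 3 LSK sh20 libraries differed more among themselves (chi-square per gene of 13.9 to 18.3) than those of the CMP sh10 and *Renilla* groups (4.31 to 8.07). LSK sh10 replicate B and CMP sh20 replicate B had the lowest *Kit* (394.9 and 446.3 CPM, against 641.1 to 958.0 CPM in the other 17), and are called the libraries that stand apart. Summed over 10 of 10 mature neutrophil markers, LSK sh10 replicate B reached 322.4 CPM, a level shared only by *Renilla* replicate B (333.0 CPM) among LSK libraries, and its *Cdkn1a* (36.4 CPM) and *Cdkn1b* (30.04 CPM) were the highest of all 19, with the part of such RNA not tested. In bulk RNA, fewer cells of a type and less RNA per cell cannot be told apart.

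Levels per kilobase of exon set the members in order. *Cdk4* was by far the most abundant, at 105.8 ± 9.03 CPM per kb (SD, n = 19 libraries). *Cdkn2c* followed at 43.2 ± 5.82, then *Cdk2* at 34.4 ± 2.49, *Ccnd2* at 31.2 ± 2.12, *Ccnd3* at 28.2 ± 2.40 and *Cdk6* at 22.1 ± 5.99 CPM per kb. *Ccnd1* (5.82 ± 1.85), *Cdkn1a* (4.53 ± 2.36) and *Cdkn1b* (2.55 ± 1.37) were low. *Ccne1* had no single place in this order, with 52.7 ± 9.87 CPM per kb in CMPs (n = 9), second to *Cdk4*, and 11.8 ± 3.77 in LSK cells (n = 10), with a mean above only those of the 3 low members. The ranges of 1 SD overlapped between *Cdk2* and *Ccnd2*, *Ccnd2* and *Ccnd3*, *Ccnd3* and *Cdk6*, *Ccnd1* and *Cdkn1a*, and *Cdkn1a* and *Cdkn1b*, in CMPs between *Ccne1* and *Cdkn2c* (41.3 ± 7.45), and in LSK cells between *Ccne1* and *Cdk6* (20.2 ± 4.72), so these neighbours are not ordered beyond their spread.

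**Figure D1:**
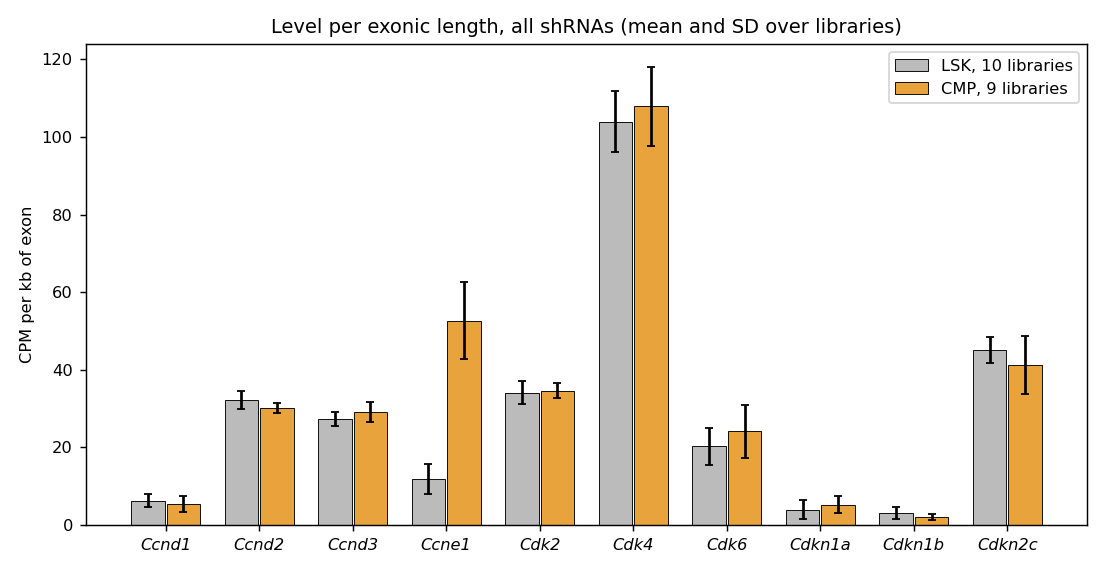
Mean level of each member in CPM per kb of exon, for 10 LSK and 9 CMP libraries of all shRNAs. Error bars are the SD over libraries. *Cdk4* is the highest in both cell types, and *Ccne1* is the member whose bars differ most, with means of 11.8 and 52.7 CPM per kb.

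Within each role 1 or 2 members made up most of the RNA per length. Of the D-type cyclins, *Ccnd2* held 47.9% ± 2.64 and *Ccnd3* 43.2% ± 2.85 (SD, n = 19), and *Ccnd1* held 8.88% ± 2.69, from 4.06% to 16.0%. Of the pair *Cdk4* and *Cdk6*, *Cdk4* held 82.9% ± 3.80. Of the 3 inhibitors, *Cdkn2c* held 86.1% ± 4.79, *Cdkn1a* 8.91% ± 4.13 and *Cdkn1b* 4.996% ± 2.24.

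**Figure D2:**
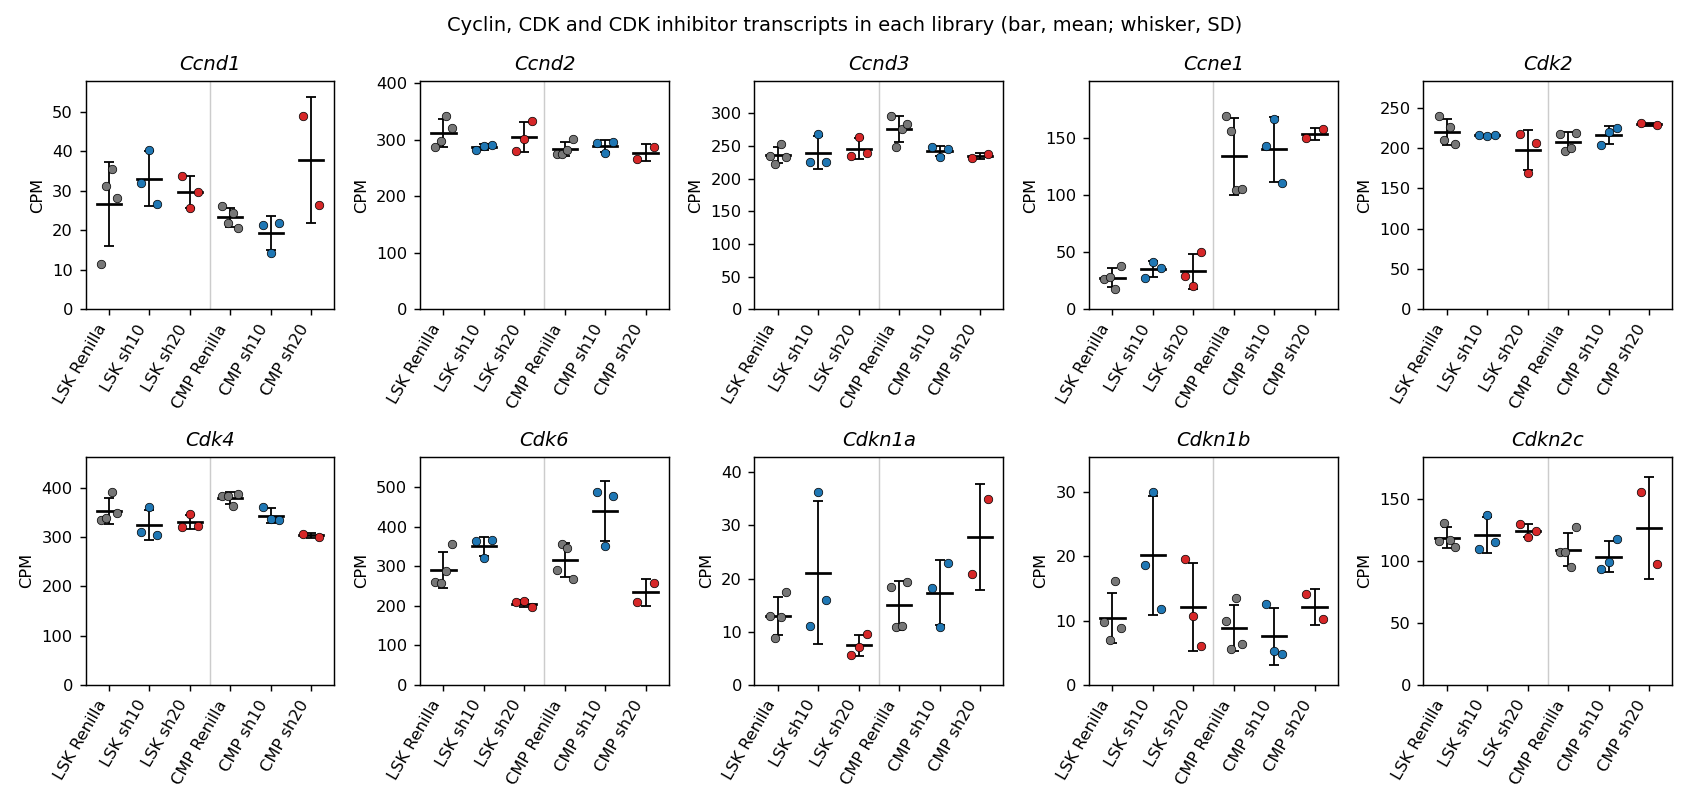
CPM of each member in every library, by cell type and shRNA (grey *Renilla*, blue sh10, red sh20); the horizontal bar is the group mean and the whisker its SD. *Ccne1* separates CMPs (104.6 to 169.3 CPM) from LSK cells (17.7 to 50.3 CPM), and *Cdk6* is above 321 CPM in the sh10 libraries and below 259 CPM in the sh20 libraries of both cell types.

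The comparison of CMPs with LSK cells asks how the G1 machinery changes between these stages. *Ccne1*, the cyclin that drives CDK2 at the G1/S transition, was far more abundant in CMPs, 4.84-fold above LSK cells in the *Renilla* libraries. In those CMPs it stood at 169.3, 155.7, 104.6 and 105.5 CPM in replicates A to D, and in the LSK cells at 26.2, 27.9, 17.7 and 38.2 CPM. The lowest CMP library was above the highest LSK library. The log2 fold change was 2.27 ± 0.28 (SE; edgeR adjusted p = 3.16e-05).

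The same held with either *Spehd* hairpin. With sh10, *Ccne1* stood at 143.2, 166.2 and 110.3 CPM in CMPs and at 27.5, 41.3 and 36.3 CPM in LSK cells, and with sh20 at 149.8 and 157.5 CPM against 29.2, 20.0 and 50.3 CPM. Neither pair of groups overlapped. The log2 fold changes were 1.998 ± 0.31 (edgeR adjusted p = 0.00033) and 2.21 ± 0.34 (edgeR adjusted p = 0.00033). Over the 27 alternatives of each comparison every one of these calls was kept, with log2 fold changes from 1.84 to 2.66.

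Erythroid RNA moved with *Ccne1* between the cell types. Summed over 8 of 8 red cell markers, none of them at 0 throughout a group, CMPs had 93.6 to 261.8 CPM and LSK cells 9.002 to 112.0 CPM. The erythroid regulators *Klf1* (224.6 to 324.7 CPM in CMPs and 19.4 to 73.5 CPM in LSK cells) and *Epor* (146.4 to 199.6 and 18.97 to 45.2 CPM) also separated the cell types. Within groups the red cell sums and *Ccne1* had no common order: they ran in the same order in CMPs with sh10 and in the opposite order in CMPs and LSK cells with sh20, and in CMPs with *Renilla* replicate C had the highest sum (157.8 CPM) and the lowest *Ccne1*. The part of such RNA in the difference between cell types was not tested.

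In the *Renilla* libraries 2 of 10 members differed between the cell types, where edgeR called 19.8% of all 15066 genes tested. The second was *Ccnd3*, a D-type cyclin used widely in blood cells, at 296.0, 248.1, 275.2 and 283.2 CPM in CMPs and 234.1, 223.0, 252.3 and 232.5 CPM in LSK cells. The groups overlapped in 1 library each. The log2 fold change was small, 0.23 ± 0.08 (edgeR adjusted p = 0.0438), and the call was lost in 20 of the 27 alternatives, in which adjusted p reached 0.425. *Bysl*, whose exons overlap those of *Ccnd3* on the opposite strand, was also higher in CMPs (200.8 ± 20.4 CPM, n = 9) than in LSK cells (125.4 ± 16.5 CPM, n = 10), and the kit does not mark strand. The other 8 members had log2 fold changes from -0.23 (*Cdkn1b*) to 0.20 (*Cdkn1a*).

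With sh10 *Ccne1* was the only member called, beside 16.1% of all genes. *Cdkn1b*, the p27 gene, came next, at 12.6, 5.22 and 4.80 CPM in CMPs and 18.7, 30.04 and 11.7 CPM in LSK cells. The groups overlapped, and the highest value was that of the LSK library that stands apart. Its log2 fold change was -1.41 ± 0.51 (edgeR adjusted p = 0.0678), on 23 to 157 counts a library. It passed in 6 of 27 alternatives, and was -0.98 without LSK sh10 replicate B (adjusted p = 0.247) and -2.03 without CMP sh10 replicate A (adjusted p = 0.0346).

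With sh20 2 members were called, beside 14.6% of all genes, and the second was *Cdkn1a*, which encodes the p53-inducible inhibitor p21. It stood at 20.8 and 34.9 CPM in CMPs and at 5.72, 7.10 and 9.55 CPM in LSK cells, with no overlap. The log2 fold change was 1.90 ± 0.47 (edgeR adjusted p = 0.0121), on 29 to 199 counts a library. Without CMP sh20 replicate C, the higher of 2, it was 1.48 with an adjusted p of 0.077. That library also had 36.2 CPM of the B cell gene *Cd79a*, where no other CMP library passed 1 CPM, with the B cell genes *Ms4a1* and *Pax5* at 0; its part in the result was not tested.

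**Figure D3:**
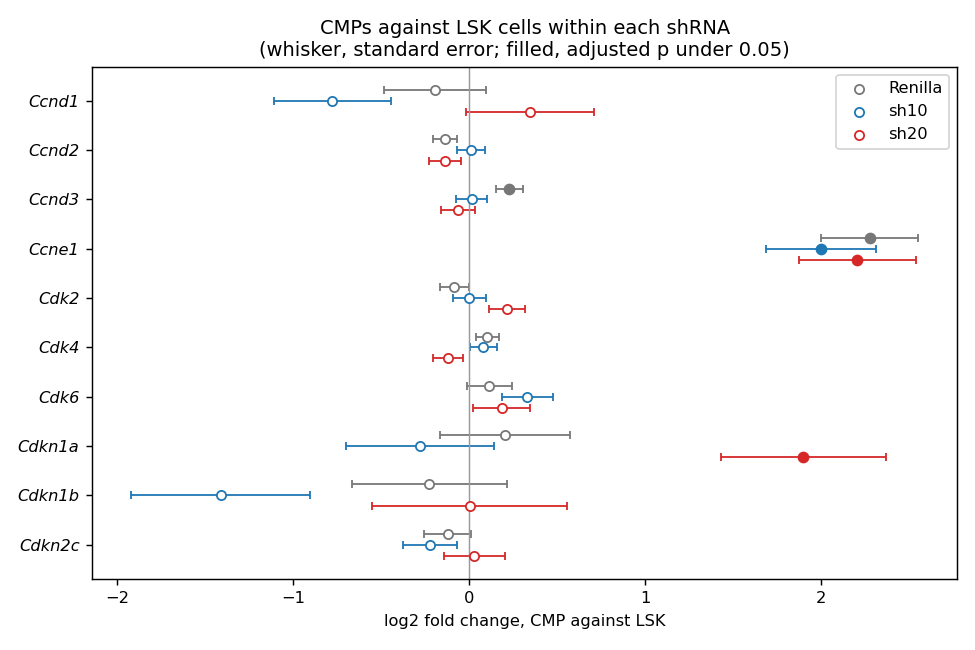
Log2 fold change of each member in CMPs against LSK cells, with *Renilla* (grey), sh10 (blue) and sh20 (red), fitted from all 19 libraries. Whiskers are standard errors and filled points passed an adjusted p of 0.05. *Ccne1* lies near 2 with every shRNA, and *Cdkn1a* reaches 1.90 with sh20.

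Knockdown was first compared with both *Spehd* shRNAs as 1 group. In CMPs none of the 10 members passed, where edgeR called 0.116% of 12912 genes. At an unadjusted p under 0.05 there were 2, *Cdk4* and *Ccnd3*, beside 2149 of all 12912 genes. DESeq2 called 1, *Cdk4*, beside 882 genes in all. In LSK cells none passed, where edgeR called 0.0% of 13441 genes. Neither an unadjusted p under 0.05 (492 of all genes) nor DESeq2 gave any member. The median log2 fold change of the members was 0.09 in CMPs and 0.04 in LSK cells, and that of all genes was 0.02 and 0.00.

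*Cdk4* (ENSMUSG00000006728.12, chr10:127063534-127067920), the kinase partner of D-type cyclins, was lower with *Spehd* shRNA in every CMP library. With *Renilla* shRNA it stood at 384.2, 383.8, 362.0 and 386.8 CPM, with sh10 at 360.1, 336.0 and 334.8 CPM, and with sh20 at 306.4 and 299.9 CPM. The 3 groups did not overlap. With the shRNAs pooled the log2 fold change was -0.21 ± 0.06 (edgeR adjusted p = 0.110). Fitted per shRNA it was -0.14 ± 0.05 with sh10 (edgeR adjusted p = 0.132), and with sh20 *Cdk4* fell by 0.31 ± 0.06 on the log2 scale (edgeR adjusted p = 0.0159). A replicate block gave -0.27 with sh20 (edgeR adjusted p = 0.111), which did not pass. *Tspan31*, whose exons overlap those of *Cdk4* on the opposite strand, stood at 150.6 ± 14.1 CPM, against 343.8 ± 29.3 CPM for *Cdk4* (SD, n = 19).

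The order of the CMP groups in *Cdk4* is also their order in depth, from *Renilla* (at most 4314959 counts) to sh10 (at most 5228700) and sh20 (at least 5680969). Once log2 total counts entered the fit as a covariate, the log2 fold change with sh20 was -0.03 (edgeR adjusted p = 0.946), so depth and hairpin cannot be told apart here. In LSK cells *Cdk4* overlapped between groups, at 333.6, 339.5, 392.2 and 348.1 CPM with *Renilla*, 310.7, 360.0 and 304.4 with sh10, and 321.2, 346.4 and 322.8 with sh20. Its log2 fold changes there were -0.11 ± 0.10 and -0.12 ± 0.10.

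*Ccnd3* was the other member lower in all CMP libraries with *Spehd* shRNA. It stood at 247.8, 233.3 and 245.0 CPM with sh10 and 232.0 and 238.1 CPM with sh20, all under the lowest *Renilla* value of 248.1 CPM. With the shRNAs pooled the log2 fold change was -0.20 ± 0.06 (edgeR adjusted p = 0.140). Over the 18 alternatives it ran from -0.26 to 0.03, so its sign was not kept, and it passed in none. Leaving out 1 library at a time kept it between -0.25 and -0.16. In LSK cells it was 0.04 ± 0.08.

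**Figure D4:**
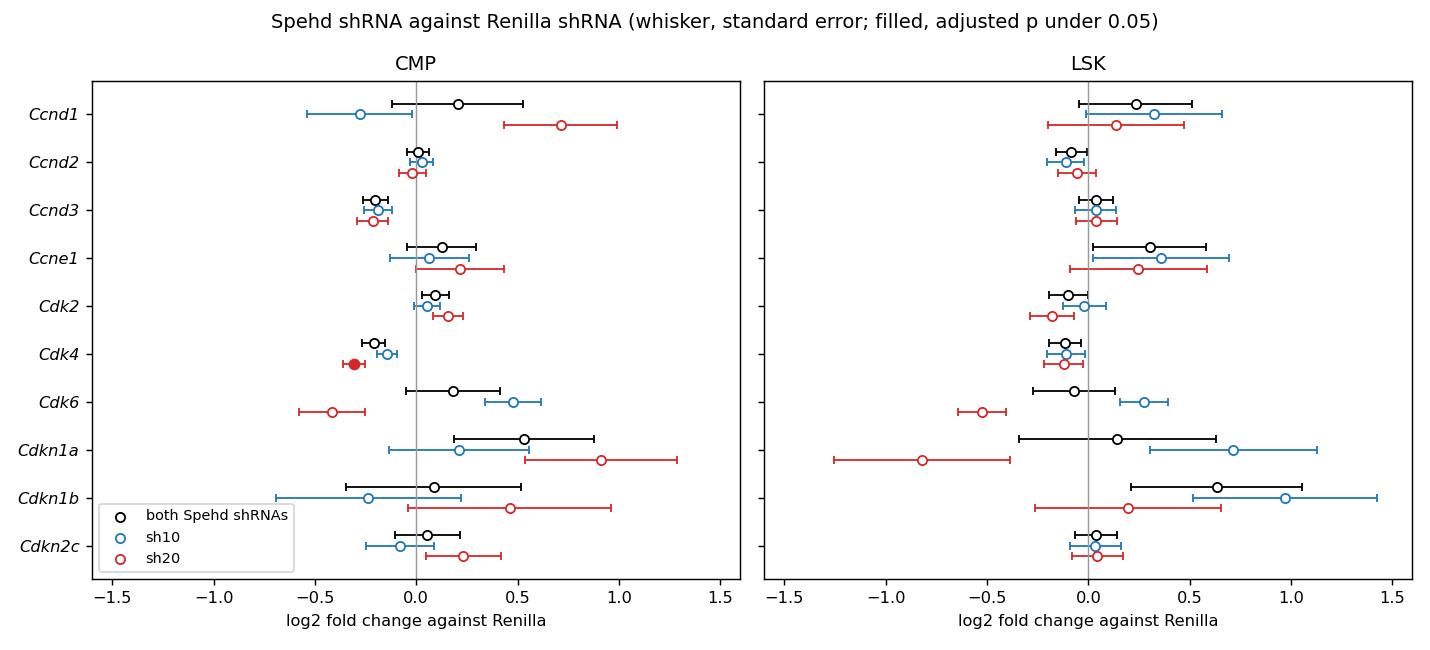
Log2 fold change of each member against *Renilla* in CMPs (left) and LSK cells (right), for both *Spehd* shRNAs pooled (black), sh10 (blue) and sh20 (red). Whiskers are standard errors and the filled point, *Cdk4* with sh20 in CMPs (-0.31), passed an adjusted p of 0.05. For *Cdk6* the blue and red points lie on opposite sides of 0 in both cell types.

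*Cdk6*, the second partner of D-type cyclins and a regulator of stem cell quiescence, was higher with sh10 than with sh20 in both cell types. In CMPs it stood at 488.2, 351.8 and 477.5 CPM with sh10, at 208.8 and 258.5 CPM with sh20, and at 289.9, 356.2, 344.6 and 267.8 CPM with *Renilla*. In LSK cells it stood at 362.5, 321.6 and 365.1 CPM with sh10, at 208.8, 212.4 and 195.7 CPM with sh20, and at 260.5, 257.9, 287.5 and 356.9 CPM with *Renilla*. In both cell types every sh10 library was above every sh20 library, every sh20 library was below every *Renilla* library, and sh10 overlapped *Renilla*. Pooling the hairpins gave log2 fold changes of 0.18 ± 0.23 in CMPs and -0.07 ± 0.20 in LSK cells.

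Between the hairpins *Cdk6* was lower with sh20 by 0.89 ± 0.17 on the log2 scale in CMPs, a log2 fold change of -0.89 (edgeR adjusted p = 0.0223), and it was the 1 member called, beside 6.41% of all 13824 genes. Without sh10 replicate A or C the adjusted p was 0.084 or 0.070, and a replicate block gave 0.0739, while over the 17 alternatives the log2 fold change ran from -1.05 to -0.75. In LSK cells the log2 fold change was -0.80 ± 0.13 (edgeR adjusted p = 0.0774), and no member passed, where edgeR called 0.0% of 13828 genes. There 2 members, *Cdk6* and *Cdkn1a*, had an unadjusted p under 0.05, beside 1268 of all 13828 genes. DESeq2 called 1, *Cdk6*, beside 256 genes in all.

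A contrast of sh20 with sh10 over both cell types, chosen after seeing the data, used all 19 libraries. It treated the CMP and LSK libraries of a hairpin as independent, though they may share mice. The 5 sh20 libraries ran from 195.7 to 258.5 CPM and the 6 sh10 libraries from 321.6 to 488.2 CPM, with no overlap. The log2 fold change was -0.84 ± 0.11 (edgeR adjusted p = 0.000549), a level 44.1% lower. The number of genes with a count separated the hairpins in the same way, with 17174 to 18066 in the 5 sh20 libraries, 19042 to 20678 in the 6 sh10 libraries and 18552 to 20173 in the 8 *Renilla* libraries, and its part in the result was not tested. *Cdk6* was the only member called, beside 6.17% of all 15066 genes, and the call was kept in all 27 alternatives, with log2 fold changes from -0.96 to -0.79. The contrast did not differ detectably between the cell types: its difference, CMP less LSK, was -0.14 with a 95% interval from -0.57 to 0.28.

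Against *Renilla*, each hairpin was less certain. Over both cell types the log2 fold change of *Cdk6* with sh20 was -0.46 ± 0.10 (edgeR adjusted p = 0.0212), and with sh10 it was 0.37 ± 0.10 (edgeR adjusted p = 0.0897), which passed in 4 of 27 alternatives, among them that without the 2 libraries that stand apart (0.40, adjusted p = 0.0323), with adjusted p up to 0.632. Both contrasts were also chosen after seeing the data. With sh20, 2 members passed, *Cdk6* and *Cdk4* (-0.21 ± 0.05, edgeR adjusted p = 0.0386), beside 4.41% of all genes. Without CMP sh20 replicate B, the library that stands apart, neither passed (adjusted p of 0.068 and 0.058), and a replicate block gave adjusted p of 0.065 and 0.105. In the fit that includes log2 total counts the log2 fold change of *Cdk6* was -0.44 (adjusted p = 0.402) and that of *Cdk4* -0.0075 (adjusted p = 0.979), and over the 27 alternatives that of *Cdk6* ran from -0.59 to -0.39. The *Cdk4* call was lost in 20 of 27 alternatives. With sh10 no member passed, beside 0.272% of all genes. An unadjusted p under 0.05 was given by 2, *Cdk6* and *Cdk4*, beside 1774 of all 15066 genes, and DESeq2 called 1, *Cdk6*.

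Other cell RNA varied with the hairpins in CMPs. Lymphoid markers, of which 8 to 10 of 10 had a count in each CMP group, summed to 107.3 to 134.7 CPM with sh10, 177.4 to 210.9 with *Renilla* and 194.0 to 252.5 with sh20, with *Ms4a1* and *Pax5* at 0 with sh20 and *Pax5* at 0 with sh10. *Nkg7* made up most of the sums with sh10 and *Renilla* (means of 114.0 and 145.5 CPM) and was not highest with sh20 (109.5 CPM). *Il7r* was lowest with sh20, and *Cd3e* was highest with sh20 (11.9 to 33.7 CPM, against at most 1.05 with sh10). Red cell markers (8 of 8) summed to 228.8 to 261.8 CPM with sh20 and 146.0 to 157.8 CPM with *Renilla*. In LSK cells the lymphoid sums overlapped (132.5 to 154.6 CPM with sh10 and 122.6 to 140.8 with sh20). Neutrophil markers did not overlap between the hairpins, with 53.05 to 322.4 CPM with sh10 and 6.70 to 24.7 with sh20 in LSK cells, and 5.64 to 14.1 with sh10 and 26.9 to 32.2 with sh20 in CMPs (9 or 10 of 10 with a count, *Ly6g* at 0 in CMPs and in LSK cells with sh20). In CMPs most of the sum with sh20 was *Mmp9* (16.3 to 27.3 CPM, against at most 0.841 with sh10), and the means of *S100a9*, *Ltf*, *Camp*, *Ngp*, *Lcn2* and *Cxcr2* were lower with sh20. The part of such RNA in the *Cdk6* difference was not tested. *Gm17590*, which overlaps *Cdk6* exons on the opposite strand, held 37 to 234 counts a library, against 988 to 2321 for *Cdk6*.

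Per hairpin in CMPs, sh10 moved no member past the threshold, beside 1.97% of all 13824 genes. By an unadjusted p under 0.05 there were 3, *Cdk6*, *Cdk4* and *Ccnd3*, beside 2926 of all genes. DESeq2 called 1, *Cdk6*, beside 1230 genes in all. With sh20 *Cdk4* alone passed, beside 6.17% of all genes, and 5 members had an unadjusted p under 0.05, beside 3395 genes. In LSK cells no member passed with sh10 or with sh20, where edgeR called 0.0% of all genes with either. Each gave 1 member with an unadjusted p under 0.05, *Cdk6* in both, beside 457 genes with sh10 and 1152 with sh20. DESeq2 called 0 members with sh10 and 1, *Cdk6*, with sh20, there beside 195 genes in all.

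*Ccnd1*, the least abundant D-type cyclin, was the most variable of the 3, with a coefficient of variation of 31.8% over the 19 libraries against 6.78% for *Ccnd2* and 8.5% for *Ccnd3*. In CMPs it stood at 26.1, 21.9, 24.4 and 20.6 CPM with *Renilla*, 21.5, 14.3 and 21.9 CPM with sh10, and 49.0 and 26.5 CPM with sh20. Both sh20 libraries were above all others, the nearest by under 1 CPM. The log2 fold change against sh10 was 0.99 ± 0.30 (edgeR adjusted p = 0.0744), and against *Renilla* it was 0.71 ± 0.28 (edgeR adjusted p = 0.156). Without CMP sh20 replicate C, which leaves only the replicate at 49.0 CPM, these were 1.37 and 1.10 and passed, the lone library being assumed to vary like the others. Without replicate B they were 0.48 and 0.20, with adjusted p of 0.342 and 0.704. In LSK cells it ran from 11.4 to 40.4 CPM and the 3 groups overlapped.

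*Ccnd2* and *Cdk2* changed little. *Ccnd2*, the most abundant D-type cyclin here, ran from 266.7 to 342.6 CPM over all libraries, with log2 fold changes of 0.01 ± 0.05 in CMPs and -0.08 ± 0.08 in LSK cells with *Spehd* shRNA and 95% intervals from -0.10 to 0.11 and from -0.24 to 0.07. *Cdk2*, the partner of cyclin E, ran from 169.4 to 240.0 CPM. Its log2 fold changes were 0.09 ± 0.07 (95% interval from -0.03 to 0.22) and -0.10 ± 0.09 (-0.28 to 0.09). Between CMPs and LSK cells with *Renilla* the log2 fold change of *Cdk2* was -0.08 ± 0.08, where *Ccne1* differed 4.84-fold. For *Cdk2* it was 0.001 ± 0.09 with sh10 and 0.22 ± 0.10 with sh20 (edgeR adjusted p = 0.1728). The sh20 groups did not overlap. In CMPs *Cdk2* with sh20 also stood above *Renilla* without overlap, at 0.16 ± 0.07 (edgeR adjusted p = 0.2175). *Ccne1* itself did not pass with *Spehd* shRNA, with 0.13 ± 0.17 in CMPs and 0.30 ± 0.28 in LSK cells.

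Among the inhibitors, *Cdkn2c*, an INK4 gene that restrains stem cell self-renewal, ran from 93.6 to 155.7 CPM. Its log2 fold changes with *Spehd* shRNA were 0.05 ± 0.16 in CMPs and 0.04 ± 0.10 in LSK cells. The highest value, 155.7 CPM, was that of CMP sh20 replicate B, and replicate C of that group stood at 97.6 CPM. The log2 fold change with sh20 was 0.23 with both and 0.54 without replicate C (edgeR adjusted p = 0.0410), where the lone library is the one that stands apart and is assumed to vary like the other groups. *Cdkn1b* ran from 4.80 to 30.04 CPM, with 0.09 ± 0.43 in CMPs and 0.63 ± 0.42 in LSK cells, and wide 95% intervals, from -0.76 to 0.93 and from -0.19 to 1.46.

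*Cdkn1a* (ENSMUSG00000023067.14, chr17:29090976-29100727) differed in order between the cell types. In CMPs it stood at 18.4, 10.97, 11.1 and 19.4 CPM with *Renilla*, 18.3, 10.9 and 23.0 CPM with sh10, and 20.8 and 34.9 CPM with sh20. In LSK cells it stood at 12.9, 8.84, 12.8 and 17.5 CPM with *Renilla*, 11.1, 36.4 and 15.9 CPM with sh10, and 5.72, 7.10 and 9.55 CPM with sh20. By mean, sh20 was thus the highest group of CMPs (27.9 CPM) and the lowest of LSK cells (7.46 CPM), and it overlapped sh10 in CMPs and *Renilla* in LSK cells. Against *Renilla* the log2 fold changes with sh20 were 0.91 ± 0.38 in CMPs (edgeR adjusted p = 0.172) and -0.82 ± 0.43 in LSK cells (edgeR adjusted p = 0.680).

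Whether the hairpin effects differed between cell types was tested directly. For both shRNAs together no member passed, beside 0.0531% of all genes. Only *Ccnd3* had an unadjusted p under 0.05 (-0.25 ± 0.10 CMP less LSK, edgeR adjusted p = 0.430), beside 1518 of all 15066 genes. Per hairpin, in contrasts chosen after seeing the data, no member passed with sh10, beside 0.0199% of all genes. None had an unadjusted p under 0.05, where 1169 genes did. With sh20 none passed, beside 0.584% of all genes. An unadjusted p under 0.05 was found for 3, *Cdkn1a*, *Ccnd3* and *Cdk2*, beside 2085 genes. DESeq2 called none in these 3 contrasts. For *Cdkn1a* the difference with sh20 was 1.70 ± 0.60 (edgeR adjusted p = 0.240). The contrast of the hairpins, sh20 less sh10 and CMP less LSK, gave 2.18 ± 0.63 for *Cdkn1a* (edgeR adjusted p = 0.151), with no member passing beside 0.259% of all genes. There *Cdkn1a* and *Ccnd1* had an unadjusted p under 0.05, beside 2023 genes, and DESeq2 called 1, *Cdkn1a*. Without LSK sh10 replicate B, the library that stands apart, the value for *Cdkn1a* was 1.53 (edgeR adjusted p = 0.228).

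The rest of the cell cycle was followed in 4 lists. With both *Spehd* shRNAs pooled no gene of any list passed in CMPs or LSK cells. In CMPs the median log2 fold change was 0.05 over 28 other G1 regulators tested of 30, -0.06 over 21 S phase genes, 0.13 over 20 genes of G2 and M phase and 0.075 over 17 p53 targets tested of 20, and in LSK cells these medians were 0.01 (27 tested), -0.05, -0.04 and 0.05 (19 tested). The median of all genes was 0.02 in CMPs and 0.00 in LSK cells.

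Per hairpin some list genes passed in CMPs and none in LSK cells, and they are named here after their values were seen. With sh10, beside 1.97% of all genes, 1 of 28 other G1 regulators fell, *Mycn* (log2 fold change -0.996 ± 0.21, edgeR adjusted p = 0.0496), and 1 of 21 S phase genes rose, *Pola1* (0.62 ± 0.11). With sh20, beside 6.17% of all genes, 1 of 28 other G1 regulators fell, *Myc* (-0.42 ± 0.07, edgeR adjusted p = 0.00993). Of 21 S phase genes 3 fell with sh20, *Mcm6* (-0.32 ± 0.05), *Mcm7* (-0.35 ± 0.06) and *Slbp* (-0.32 ± 0.07), and 1 rose, *Mcm10* (0.61 ± 0.12). Of 19 p53 targets 2 rose, *Zmat3* (1.80 ± 0.42) and *Ccng1* (0.41 ± 0.09), and 1 fell, *Sesn1* (-0.40 ± 0.10, edgeR adjusted p = 0.04998). None of 20 genes of G2 and M phase passed with either hairpin. With a replicate block no gene of any kind passed with sh20 and 5 passed with sh10, all lower, so the sh20 calls and that of *Pola1* were lost. The labels do not say that letters pair libraries across hairpins. In a fit of all 19 libraries, not of CMPs alone, with log2 total counts as covariate, 18 genes passed as lower and 2 as higher with sh20. With sh10, 1 passed as lower.

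Between CMPs and LSK cells with *Renilla* shRNA, 4 of 28 other G1 regulators passed, 3 of them higher in CMPs, beside 19.8% of all genes. None of the 4 list counts was tested against that share. These included the E2F factor *E2f4* (log2 fold change 0.66 ± 0.08) and the CDK-activating kinase *Cdk7* (0.43 ± 0.09). *Cdkn1c*, the p57 gene known for stem cell quiescence, was lower in CMPs (-1.26 ± 0.28), at 10.9 to 18.7 CPM against 28.9 to 43.6 CPM. Of the S phase genes 5 of 21 rose and none fell, led by *Cdc6*, which licenses origins (0.57 ± 0.13), and *Gmnn*, which inhibits licensing (0.46 ± 0.12), with 19 of 21 values above 0. Of the G2 and M phase genes 2 of 20 rose, *Ube2c* (0.42 ± 0.10) and *Cdk1* (0.29 ± 0.08).

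Of 20 p53 targets other than *Cdkn1a*, 4 were higher in CMPs, led by *Gadd45a* (1.58 ± 0.16) and *Btg2* (0.57 ± 0.19), and 1 was lower, *Sesn1* (-0.44 ± 0.12). All these genes had an edgeR adjusted p under the threshold, from 5.38e-06 to 0.0399. The list medians were 0.05, 0.12, 0.07 and 0.11 in that order, beside -0.02 over all genes.

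Genes with a pattern most like a member were sought by Pearson's r of log2 CPM over the 19 libraries, over the 10483 genes that averaged 50 counts or more. The libraries share depth, cell type and hairpin, so r is a description. *Ccne1* was most like *Crip2* (r = 0.97) and *Cpox* (r = 0.97), an enzyme of heme synthesis. *Cdk4* was most like *Tecr* (0.98) and *Nudc* (0.97), *Ccnd3* like *Cdk2ap2* (0.89) and *Stub1* (0.87), and *Cdk6* like *Ubr4* (0.84) and *Eif4ebp2* (0.83). *Cdkn2c* was most like *Mib2* (0.85) and *Sp140* (0.85), and *Ccnd1* like *Zkscan14* (0.78) and *Alyref2* (0.77). *Cdkn1b* was most like *Ino80d* (0.76) and *D5Ertd605e* (0.73), and *Cdkn1a* like *Zbtb7a* (0.72) and *Retreg3* (0.71). *Ccnd2* was most like *Gm43126* (0.74), which overlaps its exons on the opposite strand, and *Gpatch2* (0.73).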

How the data were processed

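RNA of 19 libraries, 9 from CMPs and 10 from LSK cells, was made into cDNA with a SMART-Seq v4 kit, which does not mark strand. STAR placed the reads on mm10, Picard removed duplicates and the authors counted reads on GENCODE vM11 genes with HTSeq; the count per gene was deposited without normalization. Reads that HTSeq labelled as on no gene were left out (51.95% to 53.82% of uniquely placed reads). The paper does not name the strand setting of its counting, so this label need not mean that the reads lay outside genes. A deposited table of normalized values was not used here.

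Counts were tested with edgeR 4.0.16 (quasi-likelihood, TMM, R 4.3.3) after filterByExpr at its settings of 10 (count) and 15 (total), and p-values were Benjamini-Hochberg adjusted over every gene tested, with a threshold of 0.05. Knockdown was fitted within a cell type, and contrasts across cell types over all 19 libraries in 6 groups. CPM used TMM over all 19 libraries, log2 CPM a prior count of 2, and exonic lengths GENCODE vM21. Alternatives were other scalings (RLE, upper quartile), filters, DESeq2 1.42.0, the replicate letters as a block, other groupings and leaving out libraries. Another had log2 total counts as a covariate, always fitted over all 19 libraries. Contrasts of single shRNAs over or between both cell types, and the fit without 2 libraries that stand apart, were added after seeing the data. Tests were checked on simulated data. All 10 members are named, as are the 2 called list genes with the largest change per direction in the pooled knockdown and *Renilla* comparisons, and the 2 genes most like each member, except for *Cdk2*, for which they are not reported here. Members and lists were chosen with earlier results of these data known.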

Additional observations from a re-analysis of the deposited data

Results flagged for a closer look

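The 10 members were checked for a library far from the rest in the 2 groups of 4 libraries, CMPs and LSK cells with *Renilla* shRNA, 20 combinations in all. *Cdk4* in CMPs was picked out, where replicate C (362.0 CPM) lay below the other 3 libraries (383.8 to 386.8 CPM). Chance picks out about 1 in 20 such groups.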

How the results depend on the processing

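No member that passed in a comparison changed sign under any alternative. *Ccne1* between cell types and *Cdk6* between the hairpins over both cell types passed in all alternatives run. Counts of members called moved as follows, with the count as reported in brackets. Under DESeq2 they were 1 for CMP knockdown (0), 1 for CMP sh10 (0), 2 for CMP sh20 against sh10 (1), 1 for LSK sh20 against *Renilla* (0) and against sh10 (0), 1 for *Renilla* CMPs against LSK cells (2), 2 for sh10 CMPs against LSK cells (1), 1 for sh10 over both cell types (0) and 1 for the hairpin contrast between cell types (0). Upper quartile scaling gave 1 for CMP knockdown, 1 for the *Renilla* comparison of cell types, 2 for that with sh10 and 1 for sh20 over both cell types (2), and RLE gave 1 for the *Renilla* comparison and 1 for sh20 over both. Without a filter the count was 1 for CMP sh10, LSK sh20 against sh10, the *Renilla* comparison, sh10 over both, sh20 over both and the hairpin contrast between cell types. With at least 10 counts in every library it was 1 for the *Renilla* comparison, 2 for that with sh10 and 1 for sh20 over both. Separate shRNA groups gave 1 for CMP knockdown, and 1 fit of all 19 libraries gave 1 for LSK sh20 against sh10. Without the 2 libraries that stand apart sh10 over both gave 1. With log2 total counts as covariate, fitted over all 19 libraries, the counts were 0 for CMP sh20 (1), 1 for the *Renilla* comparison, 2 for that with sh10 and 0 for sh20 over both.

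The labels do not say that letters pair libraries, and of 16 pairs with the same letter within a cell type 1 correlated above 0.1 (from -0.11 to 0.10). Of 9 pairs with the same shRNA and letter in the other cell type 2 did (from -0.00055 to 0.24). The replicate block gave 0 for CMP sh20 against *Renilla* (1) and against sh10 (1), 1 for the *Renilla* comparison (2) and 0 for sh20 over both (2), and over all genes 0 in CMP knockdown (15) and 0 for CMP sh20 (853). Leaving out 1 library at a time gave 0 to 1 for CMP sh10, 1 to 3 for CMP sh20, 0 to 3 for CMP sh20 against sh10, 1 to 2 for each of the 3 comparisons of cell types, 0 to 2 for sh10 over both and 0 to 2 for sh20 over both.

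Over all genes calls ran from 0 to 882 for CMP knockdown (882 with DESeq2), 1 to 1230 for CMP sh10 (272), 0 to 3191 for CMP sh20, 28 to 3484 for CMP sh20 against sh10 (886), 0 to 9 for LSK sh10 (0), 0 to 195 for LSK sh20 (0), 0 to 256 for LSK sh20 against sh10 (0), 2113 to 4520 for the *Renilla* comparison (2979), 1291 to 2923 with sh10 (2424), 1317 to 3083 with sh20 (2197), 0 to 263 for the knockdown effect between cell types (8), 0 to 615 for sh10 over both (41), 22 to 1535 for sh20 over both (665), 469 to 1776 for the hairpins over both (930), 0 to 153 and 3 to 807 for the sh10 (3) and sh20 (88) effects between cell types, and 5 to 806 for the hairpin contrast between them (39). The causes were not tested. *Cdkn1a* (29 to 199 counts a library) and *Cdkn1b* (23 to 157) had the lowest counts of the members.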
